A study of Rattus norvegicus with 57 samples.

Results

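The 8 genes described here encode proteins of the junctions that join neighbouring hepatocytes, the parenchymal cells of the liver. Gjb1 and Gjb2 belong to gap junctions, Cldn1, Cldn2, Cldn3, Ocln and Tjp1 to tight junctions, and Cdh1 to adherens junctions. They were found in the array annotation as the probe sets (groups of short probes for 1 transcript) assigned to exactly 1 of these symbols, which gave 13 probe sets among the 31099 on the array. For each gene the probe set with the highest mean log2 signal over all arrays stood for the gene. All 8 genes passed the filter on low signals, as did 10725 genes in all, so the genes described here are 8 of the 10725 tested.

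Gap junctions are clusters of connexin channels that let small molecules pass directly between hepatocytes, tight junctions seal the bile canaliculus from the blood side of the cell, and adherens junctions hold the cells together through cadherins tied to the actin cytoskeleton. In the liver these junctions keep bile apart from blood and carry signals along the plates of hepatocytes. In rat and mouse liver some of them are zonated, Cldn2 towards the central vein and Gjb2 and Cdh1 towards the portal tract.

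The study gave methapyrilene, a withdrawn antihistamine known as a liver toxicant of the rat, by mouth each day to male Han Wistar rats aged 8 to 10 weeks. Doses of 0, 30 and 80 mg/kg were given in carboxymethylcellulose, and the controls received this vehicle alone. Livers were collected on days 4, 8 and 15 of dosing, and on day 24, which followed 14 days of dosing and 10 days without the compound. Total RNA of liver homogenate was hybridised to Rat Genome 230 2.0 arrays, and 57 arrays in 12 groups of dose and day were analysed.

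Each group had 5 arrays, except 4 for 80 mg/kg on day 4, 4 for 30 mg/kg on day 24 and 4 for the control on day 24, against 6 animals planned per group. The labels call the arrays biological replicates and the rats were housed singly, so each array was read as 1 animal. Strain, sex and vehicle were common to all groups. All values below are MAS5 signals, a linear brightness, and their trimmed mean was the same on every array. A change is a difference of mean log2 signals, called where the limma test gave an adjusted p under 0.05 over all 10725 genes. For the further probe sets of a gene the adjustment was over all 18677 probe sets kept. A signal belongs to its own probe set, so levels of different genes were not compared.

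Promoter sequence from RefSeq (GRCr8, 250 bases before to 50 bases after the start of 1 transcript) was found for 6 of the 8 genes: Gjb1, Gjb2, Cldn1, Cldn3, Ocln and Tjp1. The 3 windows printed are those of Gjb1, which fell most, of Gjb2, the other connexin, which was not called against the control on any day in the fit of all groups, and of Ocln, which rose most. Capitals mark letters of motifs of liver and epithelial factors, which were chosen after the sequences had been seen.
Gjb1, chrX:70541595-70541894, plus strand: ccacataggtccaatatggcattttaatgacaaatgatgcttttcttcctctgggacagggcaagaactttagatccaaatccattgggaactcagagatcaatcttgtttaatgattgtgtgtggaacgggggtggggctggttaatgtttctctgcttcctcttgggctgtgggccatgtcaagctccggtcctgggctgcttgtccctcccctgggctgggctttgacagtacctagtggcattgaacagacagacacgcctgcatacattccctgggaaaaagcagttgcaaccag
Gjb2, chr15:35381904-35382203, minus strand: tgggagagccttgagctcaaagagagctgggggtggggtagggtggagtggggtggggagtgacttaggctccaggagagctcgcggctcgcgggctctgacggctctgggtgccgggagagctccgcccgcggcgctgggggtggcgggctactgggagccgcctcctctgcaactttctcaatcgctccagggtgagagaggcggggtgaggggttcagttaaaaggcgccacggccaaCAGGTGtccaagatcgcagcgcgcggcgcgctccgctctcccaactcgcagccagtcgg
Ocln, chr2:33441149-33441448, minus strand: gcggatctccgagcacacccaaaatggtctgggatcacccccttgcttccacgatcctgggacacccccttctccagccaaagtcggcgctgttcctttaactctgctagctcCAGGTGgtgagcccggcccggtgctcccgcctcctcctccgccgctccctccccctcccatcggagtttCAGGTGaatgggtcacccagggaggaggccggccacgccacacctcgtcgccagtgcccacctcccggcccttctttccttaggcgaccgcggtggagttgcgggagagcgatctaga
The capitals in Gjb2 (position -9 from the start site) and in Ocln (positions -137 and -68) are CAGGTG, the E-box read by the Snail and Zeb repressors. On both strands CAGGTG lies in 18.8% of 33469 windows of the same length. It also lay in the window of Cldn3 and not in those of Gjb1, Cldn1 and Tjp1, while TTGCNNAA of C/EBP factors (10.6% of all windows) and CAAAGTCCA of Hnf4a (0.391%) were not in any of the 6. The start site used lay 11864 bases inside the span of the Gjb2 gene, 1009 bases inside that of Ocln and 179658 bases inside that of Tjp1, so other promoters of these genes are not shown. The Gjb1 window is poor in CG dinucleotides, with 3 and a GC content of 49.7%, against 25 CG dinucleotides and 68.0% for Gjb2 and 21 and 65.3% for Ocln. A match is a description of letters and was not tested for binding.

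At 80 mg/kg the junction genes did not move as a group. Gjb1 and Cldn2 fell on all 3 dosing days, Ocln rose on all 3, Cldn1 fell and Cldn3 rose on day 15, Cdh1 rose on day 4, and Gjb2 and Tjp1 were called on no day. Against the control of the same day, 4 of the 8 genes were called on day 4 (2 up, 2 down), 3 on day 8 (1 up, 2 down), 5 on day 15 (2 up, 3 down) and 0 on day 24. Of all genes, 27.5% were called on day 4 (18.3% up, 9.19% down) and 50.8% on day 8 (34.2% up, 16.6% down). On day 15 these shares were 59.2% (38.8% up, 20.5% down) and on day 24 10.2% (7.15% up, 3.08% down). The counts among the junction genes were therefore near the share of all genes on days 8 and 15 and give no result about the group. The median change of the 8 genes was -0.02, 0.09, 0.01 and 0.04 on the log2 scale on days 4, 8, 15 and 24, against 0.08, 0.15, 0.16 and 0.04 for all genes.

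**Figure D1:**
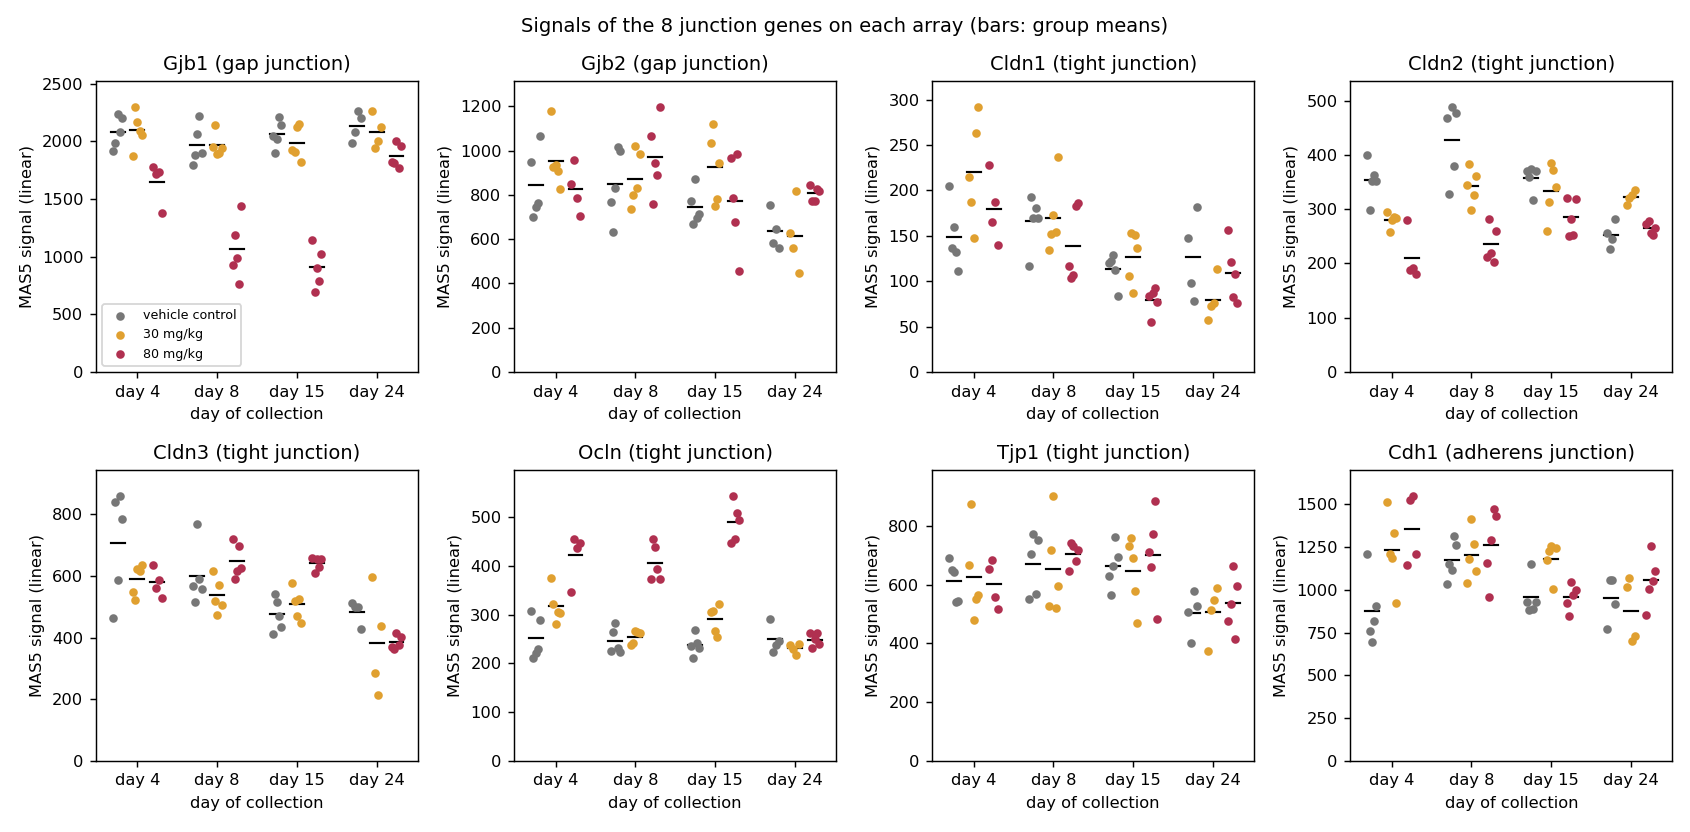
MAS5 signal on a linear axis for each of the 8 genes, 1 point per array and a bar at each group mean, in the order vehicle control, 30 mg/kg and 80 mg/kg within each day. The Gjb1 arrays at 80 mg/kg on day 15 lie between 690 and 1144, below all controls of that day, and the Ocln arrays between 447 and 544, above all controls of that day.

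Gjb1 encodes the main connexin of hepatocytes. On day 4 its signals were 1779, 1717, 1731 and 1374 at 80 mg/kg, against 1920, 1988, 2238, 2076 and 2198 in controls. On day 8 they were 932, 1191, 989, 766 and 1438 at 80 mg/kg, against 1790, 1880, 2065, 2216 and 1895 in controls. On day 15 they were 1144, 690, 903, 792 and 1025 at 80 mg/kg, against 2042, 1900, 2020, 2210 and 2139 in controls. Every treated array lay below every control array on these 3 days. The log2 change was -0.34 ± 0.11 on day 4 (SE, adjusted p = 0.0141), -0.92 ± 0.10 on day 8 (adjusted p = 1.57e-10) and -1.20 ± 0.10 on day 15 (adjusted p = 1.56e-14), the last a 2.30-fold lower signal. The fall was deeper on day 8 than on day 4, by -0.58 ± 0.15 (adjusted p = 0.0152), a call that was lost with the actin ratio of the array as a covariate (-0.49, adjusted p = 0.0694) and with only the 4 groups compared in the fit (adjusted p = 0.0704). The further step to day 15, -0.28 ± 0.14, was not called (adjusted p = 0.257). The day 4 call rests on the array at 1374: without it the change was -0.26 with an adjusted p of 0.111.

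On day 24 Gjb1 had signals of 1820, 1808, 2006, 1765 and 1961 at 80 mg/kg, against 1989, 2079, 2261 and 2198 in controls. Of the 5 treated arrays 4 lay below every control and the highest overlapped them. The change of -0.19 ± 0.11 was not called (adjusted p = 0.267), with a 95% interval of -0.40 to 0.03. Shifting every array to a common median made it a call, at -0.44 (adjusted p = 0.00772). The effect of 80 mg/kg on day 24 differed from that on day 15 by 1.01 ± 0.15 (adjusted p = 2.00e-07). Of the 12 group means, those of 80 mg/kg took the 4 lowest places, at 911 ± 181 on day 15, 1063 ± 259 on day 8, 1650 ± 186 on day 4 and 1872 ± 105 on day 24 (SD). The other 8 lay between 1966 and 2132, and neighbours among them, like those of days 15 and 8 at 80 mg/kg, differed by less than 1 SD.

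Gjb2 encodes the second connexin of hepatocytes. Its signals on day 15 were 964, 787, 677, 986 and 458 at 80 mg/kg, against 771, 666, 873, 695 and 714 in controls. The treated arrays lay on both sides of the controls, and the change was 0.01 ± 0.16 (adjusted p = 0.954), with a 95% interval of -0.30 to 0.32. It was -0.02 ± 0.16 on day 4 and 0.20 ± 0.16 on day 8, neither called. On day 24 Gjb2 had signals of 845, 773, 771, 829 and 819 at 80 mg/kg, against 753, 585, 648 and 560 in controls. These groups did not overlap, yet the change of 0.35 ± 0.16 was not called over all genes (adjusted p = 0.161). It was called where only these 2 groups entered the fit (adjusted p = 0.0369).

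Among the tight junction genes, Cldn2 encodes a claudin that forms a pore for cations and water. On day 4 its signals were 280, 188, 191 and 181 at 80 mg/kg, against 399, 299, 351, 363 and 351 in controls. On day 8 they were 213, 282, 219, 203 and 259 at 80 mg/kg, against 468, 328, 487, 380 and 477 in controls. The groups did not overlap on either day. The change was -0.77 ± 0.11 on day 4 (adjusted p = 8.03e-07) and -0.86 ± 0.11 on day 8 (adjusted p = 2.38e-09), the day 8 change being a 1.81-fold lower signal. On day 15 the signals were 321, 251, 282, 253 and 318 at 80 mg/kg, against 371, 360, 373, 317 and 370 in controls. Of the 5 treated arrays 3 lay below every control, and the change was smaller, -0.34 ± 0.11 (adjusted p = 0.00562). The effect on day 15 was weaker than on day 8 by 0.52 ± 0.15 (adjusted p = 0.0318). That difference between days was no longer called without any 1 of 7 of the 20 arrays (adjusted p from 0.0533 to 0.0652) or with only the 4 groups compared in the fit (adjusted p = 0.0740). On day 24 Cldn2 had signals of 273, 278, 256, 252 and 265 at 80 mg/kg, against 256, 226, 245 and 281 in controls. The groups overlapped, with a change of 0.07 ± 0.11 (adjusted p = 0.715). Its control mean differed between days more than that of the other genes, 1.70-fold between 428 on day 8 and 252 on day 24. The Cldn2 control mean of day 24 thus lay below its mean of 285 at 80 mg/kg on day 15, and only arrays of the same day were set against each other.

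Ocln encodes occludin, a membrane protein of the tight junction strand, and moved in the opposite direction. Its signals on day 4 were 346, 456, 438 and 448 at 80 mg/kg, against 308, 212, 221, 230 and 290 in controls. On day 8 they were 373, 456, 439, 394 and 373 at 80 mg/kg, against 226, 265, 283, 231 and 223 in controls. On day 15 they were 447, 544, 455, 509 and 494 at 80 mg/kg, against 236, 210, 269, 242 and 232 in controls. All treated arrays lay above all controls on the 3 days. The change was 0.75 ± 0.10 on day 4 (adjusted p = 7.14e-08), 0.73 ± 0.09 on day 8 (adjusted p = 3.76e-09) and 1.04 ± 0.09 on day 15 (adjusted p = 4.56e-14), the last a 2.06-fold higher signal. A second, dimmer probe set of Ocln rose on the same days, by 0.65 on day 4 (adjusted p = 0.0173), by 0.52 on day 8 (adjusted p = 0.0265) and most on day 15 (adjusted p = 2.35e-05). On day 24 the signals were 262, 232, 250, 262 and 239 at 80 mg/kg, against 290, 223, 238 and 246 in controls. The groups overlapped throughout, with a change of 0.00 ± 0.10 (adjusted p = 0.989), and the effect differed from that of day 15 by -1.04 ± 0.13 (adjusted p = 9.83e-09). In the order of the 12 group means, 80 mg/kg on days 8, 4 and 15 took the 3 highest places, at 407 ± 38.5, 422 ± 51.1 and 490 ± 39.7 (SD), of which those of days 8 and 4 differed by less than 1 SD.

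Cldn1 encodes a sealing claudin. On day 15 its signals were 84, 55, 88, 92 and 77 at 80 mg/kg, against 120, 123, 129, 112 and 84 in controls. The groups overlapped through the control at 84, and the change was -0.52 ± 0.22 (adjusted p = 0.0370). This call was lost without any 1 of 6 of the 10 arrays, with adjusted p from 0.0539 to 0.137. The 2 further probe sets of Cldn1 also fell on day 15, by -0.50 (adjusted p = 0.00277) and -0.85 (adjusted p = 2.02e-05), and the last of these fell on day 8 too, by -0.49 (adjusted p = 0.0142). The main probe set of Cldn1 was not called on day 8 at -0.28 ± 0.22 (adjusted p = 0.297, but -0.50 and 0.0407 with a common median), on day 4 at 0.28 ± 0.23 or on day 24 at -0.18 ± 0.23. On day 24 the 2 further probe sets parted, at 0.17 (adjusted p = 0.524) and -0.52 (adjusted p = 0.0581), neither called.

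Cldn3 encodes another sealing claudin. On day 15 its signals were 658, 611, 655, 628 and 654 at 80 mg/kg, against 412, 542, 517, 472 and 435 in controls. The treated arrays lay close together and above every control, with a change of 0.44 ± 0.15 (adjusted p = 0.00899). Shifting every array to a common median ended this call, at 0.30 with an adjusted p of 0.109. On day 24 the signals of Cldn3 were 369, 363, 414, 375 and 400 at 80 mg/kg, against 512, 501, 498 and 427 in controls. The order was reversed without overlap, but the change of -0.33 ± 0.16 was not called (adjusted p = 0.162). It was called with only these 2 groups in the fit (adjusted p = 0.0287) and with a common median (-0.59, adjusted p = 0.00711). The difference between the effects of day 24 and day 15 was called, at -0.77 ± 0.21 (adjusted p = 0.00284). Changes on day 4 and day 8, -0.25 ± 0.16 and 0.12 ± 0.15, were not called.

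Tjp1 encodes a scaffold that ties claudins and occludin to actin. Its signals on day 15 were 710, 660, 771, 885 and 482 at 80 mg/kg, against 628, 563, 663, 762 and 695 in controls. The groups overlapped, and no comparison called Tjp1. At 80 mg/kg its changes lay between -0.03 and 0.09, and the 95% intervals of the 4 days reached at most -0.35 and 0.41, so larger changes of this probe set lay outside them.

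Cdh1 encodes E-cadherin, the adhesion molecule of the adherens junction. On day 4 its signals were 1143, 1529, 1548 and 1211 at 80 mg/kg, against 1209, 760, 692, 817 and 903 in controls. Of the 4 treated arrays 3 lay above every control and 1 below the highest control, and the change was 0.65 ± 0.14 (adjusted p = 0.000363). The mean of these controls, 876, was lower than the control means of day 8 (1176), day 15 (956) and day 24 (952). At 80 mg/kg the mean was 1358 on day 4 and 1264 on day 8. On day 8 the change was 0.09 ± 0.13 (adjusted p = 0.586). On day 15 the signals were 921, 846, 1045, 969 and 998 at 80 mg/kg, against 931, 883, 1150, 886 and 927 in controls, with a change of 0.00 ± 0.13 (adjusted p = 0.983). On day 24 it was 0.15 ± 0.14, not called. The difference between the effects of day 8 and day 4, -0.55 ± 0.19, missed the threshold (adjusted p = 0.0687), and it was called without any 1 of 3 arrays (lowest adjusted p = 0.0291). Second probe sets of Cdh1 and of Tjp1 failed the filter, with mean signals of 1.23 and 3.07, and were not tested.

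**Figure D2:**
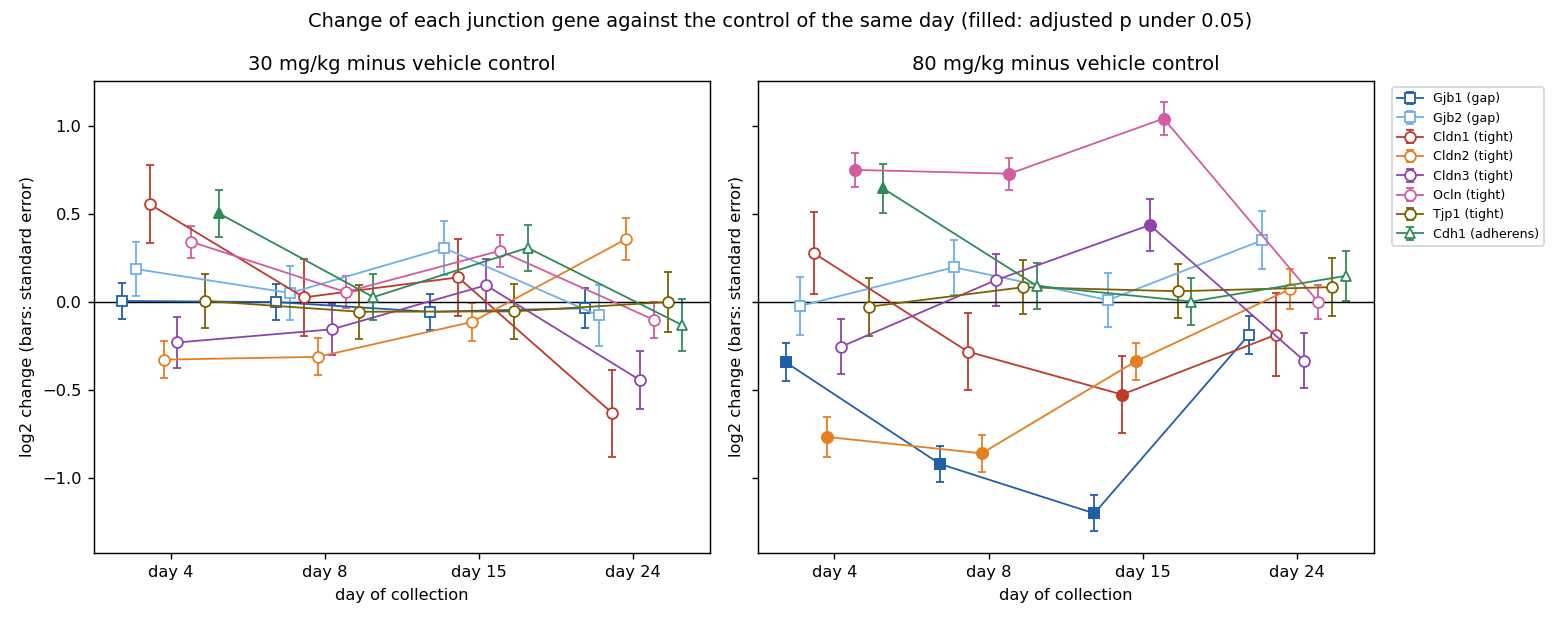
Log2 change of each gene against the vehicle control of the same day, at 30 mg/kg on the left and at 80 mg/kg on the right, with bars of 1 standard error and filled symbols where the adjusted p was under 0.05. At 80 mg/kg Gjb1 reaches -1.20 and Ocln 1.04 on day 15, against -0.19 and 0.00 on day 24; at 30 mg/kg only Cdh1 on day 4 is filled.

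At 30 mg/kg Cdh1 on day 4 was the only call among the junction genes. Of the 8 genes 1 was called on day 4 and 0 on days 8, 15 and 24, against 0.783%, 0.233%, 4.6% and 0.0932% of all genes. At an unadjusted p under 0.05 the limma test gave 4, 1, 2 and 3 of the 8. The called gene was Cdh1, with signals of 1515, 1210, 1188, 1334 and 925 at 30 mg/kg on day 4, against 1209, 760, 692, 817 and 903 in controls. Of the 5 treated arrays 3 lay above every control and 2 among them, and the change was 0.50 ± 0.13 (adjusted p = 0.0488). The call held in 2 of 10 fits that left out 1 array each and is at the edge of the threshold. It shares its control arrays with the Cdh1 call at 80 mg/kg on day 4. Their mean, 876, was the lowest Cdh1 control mean of the 4 days, and the highest was 1176 on day 8. The Cdh1 mean at 30 mg/kg was 1235 on day 4, 1202 on day 8, 1182 on day 15 and 879 on day 24. The part of the low day 4 controls in the 2 Cdh1 calls was not tested. Gjb1 changed by 0.01, 0.00, -0.05 and -0.03 on the 4 days at 30 mg/kg, with no 95% interval reaching below -0.26. Ocln at 30 mg/kg just missed the threshold on day 4 (0.34 ± 0.09, adjusted p = 0.0542) and on day 15 (0.29 ± 0.09, adjusted p = 0.0516). Cldn2 at 30 mg/kg lay below every control on day 4, with signals of 258 to 295 against 299 to 399, and above every control on day 24, with 308 to 335 against 226 to 281. Neither change of Cldn2 was called (-0.33 ± 0.11, adjusted p = 0.128, and 0.36 ± 0.12, adjusted p = 0.230). Cldn1 at 30 mg/kg changed by 0.56 ± 0.22 on day 4 (adjusted p = 0.230) and by -0.63 ± 0.25 on day 24 (adjusted p = 0.349), and Cldn3 by -0.44 ± 0.16 on day 24 (adjusted p = 0.316). These sizes are like those called at 80 mg/kg on day 15 for the same genes, but none of the 3 was called, and the groups overlapped. The 2 further probe sets of Cldn1 at 30 mg/kg gave 0.43 and 0.53 on day 4 but 0.21 and -0.24 on day 24, none of them called.

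Set against 30 mg/kg directly, 80 mg/kg gave 3, 3, 5 and 0 called genes of 8 on days 4, 8, 15 and 24, against 20.1%, 46.1%, 55.2% and 6.77% of all genes. On day 24 the unadjusted p was under 0.05 for 2 of the 8. Gjb1 was lower at 80 than at 30 mg/kg by -0.35 ± 0.11 on day 4 (adjusted p = 0.0167), -0.92 ± 0.10 on day 8 (adjusted p = 3.21e-10) and -1.14 ± 0.10 on day 15 (adjusted p = 1.50e-13). Its day 4 call was lost without the 80 mg/kg array at 1374 (-0.26, adjusted p = 0.135) and with quantile normalization (-0.24, adjusted p = 0.112). Ocln was higher at 80 than at 30 mg/kg by 0.41 ± 0.10 on day 4 (adjusted p = 0.00193, but 0.28 and 0.0602 with a common median, and 0.35 and 0.0612 with the mean of its probe sets), 0.67 ± 0.09 on day 8 (adjusted p = 4.27e-08) and 0.75 ± 0.09 on day 15 (adjusted p = 1.09e-09). Cldn2 was lower by -0.44 ± 0.11 on day 4 (adjusted p = 0.00375) and -0.55 ± 0.11 on day 8 (adjusted p = 3.12e-05). Gjb2 was not called on day 15 at -0.30 ± 0.16 (adjusted p = 0.102), but it was with a common median (-0.42, adjusted p = 0.0246), with array weights (-0.38, adjusted p = 0.0172) and with the actin covariate (-0.36, adjusted p = 0.0399). On day 15 Cldn1 was lower at 80 mg/kg by -0.67 ± 0.22 (adjusted p = 0.00892). Cldn3 (0.34 ± 0.15, adjusted p = 0.0442) and Cdh1 (-0.31 ± 0.13, adjusted p = 0.0456) passed narrowly on day 15, and their calls held in 1 and 3 of 10 fits that left out 1 array each.

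The effects themselves were compared between days. Of the 8 genes 1 differed between day 8 and day 4 at 80 mg/kg, 1 between day 15 and day 8 and 4 between day 24 and day 15, against 6.69%, 4.98% and 42.7% of all genes. The 4 genes of the last comparison were Gjb1 and Cldn2, whose effects moved up by 1.01 and 0.41, and Ocln and Cldn3, whose effects moved down by 1.04 and 0.77. The difference of Cldn2 was lost with a common median (0.29, adjusted p = 0.157) and without any 1 of 3 arrays. At 30 mg/kg 0 of 8 genes differed between days 15 and 4 and 0 between days 24 and 15, against 0.0653% and 1.09% of all genes, and 0 and 5 of the 8 at an unadjusted p under 0.05. These comparisons share control arrays with those of the single days.

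Whether 2 junction genes changed unequally was tested within arrays, from the difference of their log2 signals on each array, which does not depend on how the arrays were scaled. All 28 pairs were compared between 80 mg/kg and control on each of the 4 days by an exact two-sided permutation test, with adjustment over the 112 tests. The smallest p such a test allows is 0.00794, for 5 against 5 and for 4 against 5 arrays. Unequal change was called for 13 of 28 pairs on day 4, 15 on day 8, 18 on day 15 and 8 on day 24. Pairs of the same junction type were called in 5, 7, 7 and 3 of 11 cases, and pairs of different types in 8, 8, 11 and 5 of 17. No share over pairs of all genes was computed, so these counts say nothing particular to junctions.

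**Figure D3:**
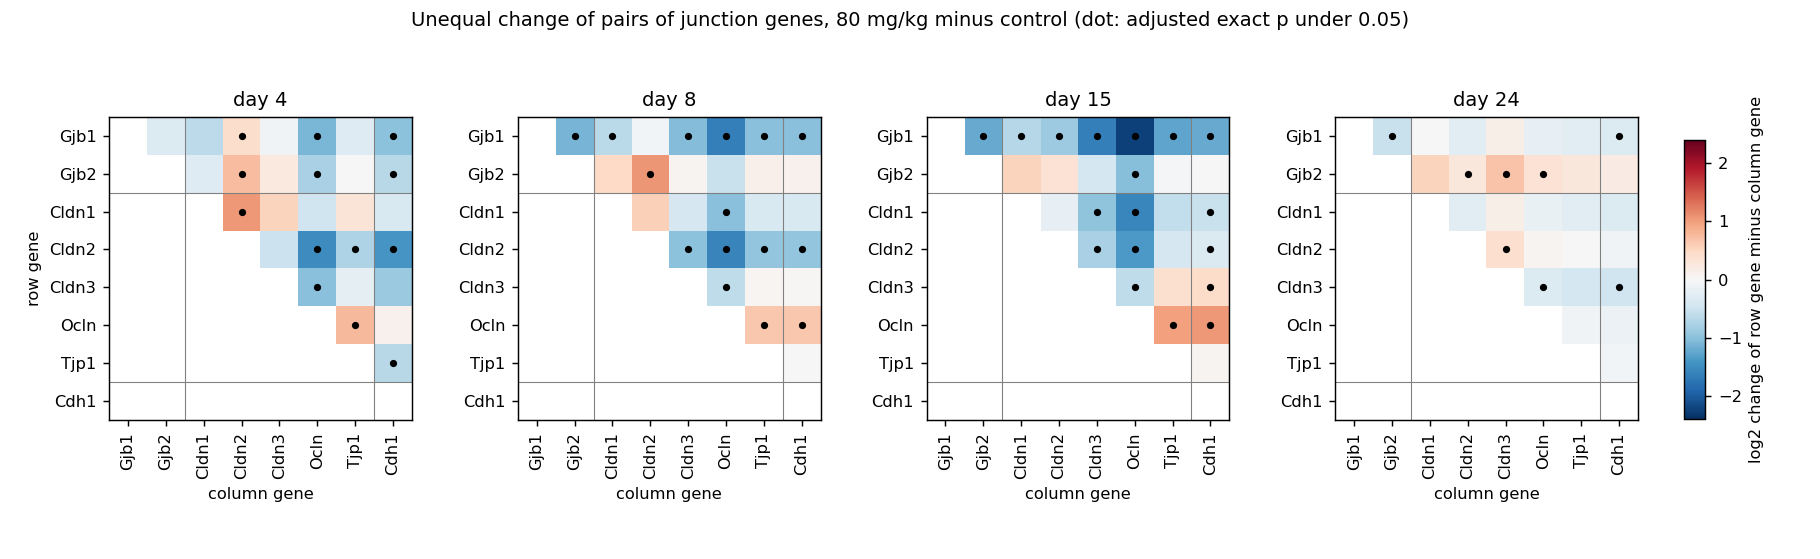
Log2 change of the row gene minus that of the column gene, 80 mg/kg minus control, for the 28 pairs on each day; grey lines part gap, tight and adherens junction genes, and a dot marks an adjusted exact p under 0.05. The darkest cell is Gjb1 against Ocln on day 15, at -2.24.

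The 2 connexins parted. The log2 signal of Gjb1 minus that of Gjb2, of which only the shift between groups has a meaning, was 0.11 ± 0.36 at 80 mg/kg on day 8, against 1.23 ± 0.24 in controls (SD), a shift of -1.12 (adjusted exact permutation p = 0.0228). On day 15 the shift was -1.21, from 0.26 ± 0.59 at 80 mg/kg against 1.48 ± 0.18 in controls (adjusted exact permutation p = 0.0228). On day 24 it was -0.54, from 1.21 ± 0.12 at 80 mg/kg against 1.75 ± 0.25 in controls (adjusted exact permutation p = 0.0228). In the main fit the change that day was 0.35 for Gjb2 and -0.19 for Gjb1, but with a common median that of Gjb1 was -0.44. How much of the shift came from each gene thus depends on how the arrays were scaled. The Gjb2 control mean of day 24, 636, was the lowest of the 4 days. On day 4 the shift of Gjb1 minus Gjb2 was -0.32 and was not called (adjusted exact permutation p = 0.155). The connexins thus differed from each other on day 24 although neither was called against the control by limma in the main fit.

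Within the tight junction, Cldn2 and Ocln moved apart by -1.52 on day 4, -1.59 on day 8 and -1.38 on day 15 (adjusted exact permutation p = 0.0228 each). Cldn2 minus Cldn3 shifted by -0.98 on day 8 and -0.77 on day 15 (adjusted exact permutation p = 0.0228 each). On day 24 this pair had turned, with Cldn2 minus Cldn3 at 0.41 (adjusted exact permutation p = 0.0404). Between types, Gjb1 minus Ocln shifted by -2.24 on day 15, the widest of the 112 differences, from 0.88 ± 0.39 at 80 mg/kg against 3.12 ± 0.12 in controls. Gjb1 minus Cdh1 shifted by -0.99 on day 4, -1.01 on day 8, -1.20 on day 15 and -0.34 on day 24, each of them called. Ocln minus Cdh1 was called on days 8 and 15, at 0.64 and 1.04, and not on day 4, when both genes rose. With 4 against 4 arrays the test cannot go below 0.0286, so leaving out 1 array gave 0 called pairs in 5 of 9 fits on day 4 and in 5 of 9 on day 24.

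Other genes of the same junctions came from a list of 91, of which 70 were on the array with a probe set of their own and 54 passed the filter. At 80 mg/kg 17 of the 54 changed on day 4 (13 up, 4 down), 27 on day 8 (17 up, 10 down), 33 on day 15 (19 up, 14 down) and 10 on day 24 (5 up, 5 down). Of all genes 27.5%, 50.8%, 59.2% and 10.2% were called on these days, and the counts of days 8 and 15 are near those shares. The median change of the 54 was 0.14, 0.17, 0.13 and -0.03, against 0.08, 0.15, 0.16 and 0.04 for all genes. On day 4 the count was 11 without the 80 mg/kg array at 1374 for Gjb1. On day 24 it was 5, 5 and 4 without control arrays 2, 3 and 5 in turn and 6 without 80 mg/kg array 2.

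Of 5 other gap junction genes 2 rose on day 15 and none fell, where 38.8% of all genes rose and 20.5% fell. Gja1, a connexin of many cell types outside the hepatocyte, had signals of 454 to 628 at 80 mg/kg on day 15 (median 537), against 337 to 390 in controls (median 357). The groups did not overlap, and the change was 0.54 ± 0.10 (adjusted p = 4.14e-06), in the direction opposite to that of Gjb1. On day 24 Gja1 still lay above all controls, at 449 to 582 against 290 to 363, a change of 0.63 ± 0.10 (adjusted p = 0.000123). Panx1, a pannexin of single-membrane channels, rose by 0.51 ± 0.19 on day 15 (adjusted p = 0.0176). Gja4, a connexin of vessel walls, rose on day 24 by 0.49 ± 0.16 (adjusted p = 0.0361).

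Of 30 other tight junction genes 12 rose and 8 fell on day 15, near the shares of all genes, 38.8% and 20.5%. Cldn7 and Cldn4, claudins of bile ducts and other epithelia, had median signals of 42.9 and 27.8 at 80 mg/kg, against 5.24 and 6.48 in controls. Their controls lay below 17.09, the median of all values in the table, so the changes of 3.29 ± 0.70 (adjusted p = 7.31e-05) and 2.42 ± 0.63 (adjusted p = 0.000885) rest on dim control signals. Both passed the filter through arrays where they were higher than in these controls, so their being tested at all depended on a rise in some groups. Both are counted among the 12 rises. Ildr1, of tricellular contacts, rose over similarly dim controls by 1.58 ± 0.57 (adjusted p = 0.0142). Its mean signals (from log2 means) were also low in the controls of day 4 (5.40) and day 24 (7.11). Ildr1 too may have passed the filter only through groups where it was higher, and it is also counted among the 12 rises. Ybx3, a Y-box factor that binds the Tjp1 protein, had signals of 577 to 693 at 80 mg/kg, against 223 to 321 in controls, a change of 1.38 ± 0.15 (adjusted p = 4.36e-11). The largest falls were in the scaffold gene Mpdz (-0.90 ± 0.12, adjusted p = 1.50e-08), in Cldn14 (-0.52 ± 0.20, adjusted p = 0.0224), in Igsf5 (-0.47 ± 0.07, adjusted p = 1.29e-07) and in the polarity gene Pals1 (-0.45 ± 0.10, adjusted p = 0.000194). On day 24 Cxadr (0.68 ± 0.17, adjusted p = 0.00722) and Jam2 (0.53 ± 0.13, adjusted p = 0.00876), both immunoglobulin-type adhesion proteins, were still higher. Amotl2 (-0.57 ± 0.19, adjusted p = 0.0463) and the polarity kinase gene Prkci (-0.43 ± 0.13, adjusted p = 0.0221) were lower on day 24.

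**Figure D4:**
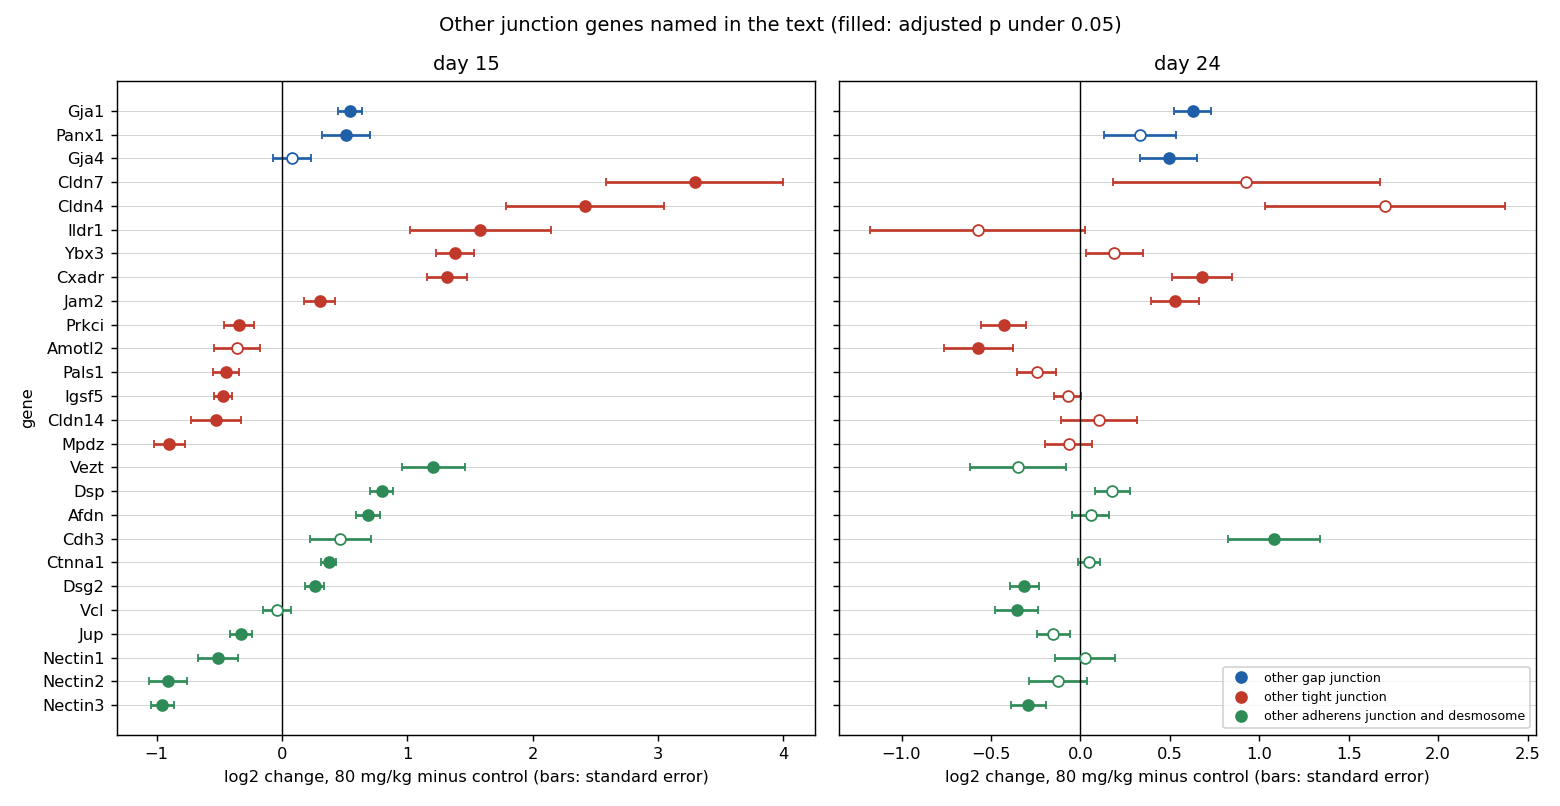
Log2 change at 80 mg/kg minus control for the other junction genes named in the text, on day 15 (left) and day 24 (right), with bars of 1 standard error and filled symbols where the adjusted p was under 0.05; the axes of the panels differ in range. Cldn7 reaches 3.29 on day 15, and Gja1 is filled on both days.

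Of 19 other adherens junction and desmosome genes 5 rose and 6 fell on day 15, where 38.8% of all genes rose and 20.5% fell. Vezt, a membrane protein of adherens junctions, rose by 1.21 ± 0.25 (adjusted p = 5.41e-05), and the desmosomal plaque gene Dsp by 0.80 ± 0.09 (adjusted p = 1.38e-10). Afdn, which links nectins to actin, rose by 0.69 ± 0.10 (adjusted p = 2.64e-08) and the catenin gene Ctnna1 by 0.37 ± 0.06 (adjusted p = 2.64e-07). All 3 measured nectins, cell adhesion molecules that work beside cadherins, fell: Nectin3 by -0.96 ± 0.09 (adjusted p = 7.69e-13), Nectin2 by -0.91 ± 0.15 (adjusted p = 1.23e-06) and Nectin1 by -0.51 ± 0.16 (adjusted p = 0.00493). Nectin3 had signals of 232 to 342 at 80 mg/kg on day 15, against 527 to 630 in controls, without overlap. The plakoglobin gene Jup fell by -0.33 ± 0.09 (adjusted p = 0.00126). On day 24 Cdh3, another cadherin, was higher by 1.08 ± 0.26 (adjusted p = 0.00507), while Vcl (-0.36 ± 0.12, adjusted p = 0.0470) and Dsg2 (-0.31 ± 0.08, adjusted p = 0.0104) were lower. Nectin3 was still lower on day 24, by -0.29 ± 0.10 (adjusted p = 0.0445), with overlapping groups. The Cdh3 change rests on dim mean signals (from log2 means) of 25.6 at 80 mg/kg against 12.1 in controls.

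Of 15 listed regulators of junction genes 7 passed the filter. On day 15 at 80 mg/kg 0 of the 7 rose and 3 fell, all of them hepatocyte factors: Foxa1 by -1.09 ± 0.16 (adjusted p = 5.95e-08), Cebpa by -0.80 ± 0.16 (adjusted p = 2.21e-05) and Hnf4a by -0.57 ± 0.08 (adjusted p = 1.93e-08). Foxa2, a further hepatocyte factor among the 7, was not called on day 15. Of all genes 59.2% were called that day, 20.5% as lower. The repressor genes Snai1 (0.15 ± 0.31), Zeb1 (0.02 ± 0.18) and Zeb2 (-0.10 ± 0.15) were not called on day 15. For Snai1 the mean signal of 17.6 at 80 mg/kg, against 15.9 in controls (from log2 means), lay near the filter level. On day 24 Zeb2 was higher by 0.82 ± 0.16 (adjusted p = 0.000631). Snai1, Zeb1 and Zeb2 were named after their values had been seen, as readers of the E-box above.

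The RNA came from whole liver pieces, so fewer cells of a type and less RNA per cell cannot be told apart, and no signal can be placed in hepatocytes alone. All 9 measured hepatocyte markers had a median above 17.09 in every group. At 80 mg/kg 3, 7, 7 and 0 of them fell on days 4, 8, 15 and 24, and none rose. Of all genes 9.19%, 16.6%, 20.5% and 3.08% fell on these days and 18.3%, 34.2%, 38.8% and 7.15% rose. The summed signal of the hepatocyte markers on day 15 was 32306 to 45176 at 80 mg/kg, against 42350 to 54839 in controls. On day 15 the changes of these markers ran from -1.18 (Ttpa) to -0.21 (Apoa1), with a median of -0.42, so that of Gjb1, -1.20, was close to the lowest of them. Of 15 biliary and progenitor markers, which include Cldn4 and Cldn7, 9, 11, 13 and 4 rose on the 4 days and 0, 2, 1 and 0 fell. Their sum on day 15 was 6374 to 8266 at 80 mg/kg, against 2422 to 3439 in controls. Most of it came from Krt18 and Krt8, keratins that hepatocytes also express, with mean signals (from log2 means) of 3028 and 2876 at 80 mg/kg, against 1491 and 1136 in controls. Of these 15, 6 had a median under 17.09 in the controls of day 15 and 0 at 80 mg/kg. Some of these 6 may have passed the filter only through groups where they were higher.

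Of 11 pericentral markers, to be set beside Cldn2, 5, 6, 4 and 0 were lower at 80 mg/kg on the 4 days and 0, 0, 1 and 1 higher, where 9.19%, 16.6%, 20.5% and 3.08% of all genes were lower. The share of all genes that were higher was 18.3%, 34.2%, 38.8% and 7.15% on the 4 days. The summed signal of the pericentral markers on day 8 was 10521 to 16089 at 80 mg/kg, against 19384 to 22066 in controls. Of 10 periportal markers 1, 9, 9 and 1 were lower and 0, 0, 1 and 0 higher, while the periportal junction genes Gjb2 (0.20 on day 8, 0.01 on day 15) and Cdh1 (0.09 and 0.00) were not called on days 8 and 15. Of 11 proliferation markers 11, 11, 10 and 0 rose, with sums of 1133 to 1466 at 80 mg/kg on day 15, against 486 to 660 in controls. Of these 11, 5 had a median under 17.09 in the controls of day 15 and 0 at 80 mg/kg. Some of these 5 may have passed the filter only through groups where they were higher. Macrophage markers rose in 3, 9, 8 and 8 of 10 cases, with sums on day 24 of 3288 to 4284 at 80 mg/kg, against 1821 to 3067 in controls. Stellate cell and fibroblast markers rose in 3, 2, 5 and 6 of 13 cases and fell in 3, 0, 2 and 0, with sums on day 24 of 2313 to 3558 at 80 mg/kg, against 1450 to 2574 in controls. Of these 13, 4 had a median under 17.09 in the controls of day 15 and 1 at 80 mg/kg, so the same limit of the filter may hold for some of them. Endothelial markers rose in 0, 1, 0 and 3 of 8 and fell in 0, 1, 2 and 0. The part of any of these cell types in the changes of the junction genes was not tested.

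The genes most like Gjb1, Cldn2 and Ocln were sought among the tested genes, except those whose symbol was a number or a LOC or RGD name. The measure was the root mean square difference of the 12 group means of log2 signal, each gene centred on its own mean. For Gjb1 the nearest genes were Pxmp2 (0.037), Kyat3 (0.058) and Nit2 (0.068), genes of a peroxisomal membrane protein, an aminotransferase and an amidase. For Ocln they were Arfrp1 (0.059), Sestd1 (0.076) and Dhrs7b (0.084). For Cldn2 the nearest genes were farther off, Adap2 (0.16), Atxn7l3b (0.17) and Neil1 (0.18), so none of the genes searched shared its course over dose and day as closely. The measure does not allow for the noise of the group means. Arrays of 1 group correlated at a median r of 0.936 over all probe sets, at least 0.924. The ratio of the 3′ to the 5′ actin probe sets, a sign of RNA degradation, had group medians of 6.37 to 6.91 on day 24 at all doses and of 4.27 to 5.29 on the earlier days. Each comparison with control was made within a day. The highest ratios were 9.76 in a control and 9.30 at 30 mg/kg, both on day 24, and without these 2 arrays the counts of called junction genes on day 24 were still 0 at 80 mg/kg and 0 at 30 mg/kg.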

How the data were processed

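Liver RNA was measured on 57 arrays in 12 groups, and each array was read as 1 animal. The deposited values are linear signal intensities that the authors made with MAS5, per the submitters' processing notes. Leaving out 2% of probe sets at each end, their mean was 99.992 on every array, as computed from the values. The MAS5 version is not given in the sources used here. Signals were converted to log2 without an offset, and a probe set was kept where 4 or more arrays exceeded 17.09, the table-wide median (18677 after 57 control probe sets were left out). Of the probe sets 20826 had 1 symbol in the platform annotation, 436 several and 9837 none. Only those with 1 symbol were used, and the probe set of highest mean log2 signal stood for its gene (10725 genes). Means of the 12 groups were fitted with limma 3.58.1 (R 4.3.3), with a variance trend and Benjamini-Hochberg adjustment over all 10725 genes, threshold 0.05. The further probe sets of the 8 genes were taken from a separate fit of the same kind to all 18677 probe sets kept. The fit and the permutation test were tested on simulated data. The number of arrays limits the precision. All 8 genes are named in each comparison of 80 mg/kg with control. From each list of other junction genes up to 4 rises and 4 falls of day 15 and up to 2 of each on day 24 were named by size of change. Members and lists were chosen with earlier results of these data known. Same-numbered arrays of different doses on a day did not deviate together: of 36 such pairs 0 had a correlation above 0.1.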

Additional observations from a re-analysis of the deposited data

Results flagged for a closer look

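In 9 of 96 groups 1 array stood apart from the others of its group by a gap that chance gives in about 1 in 20 groups. At 80 mg/kg on day 4 Gjb1 had 1 array at 1374 with the others at 1717 to 1779, Cldn2 had 1 at 280 with the others at 181 to 191, and Ocln had 1 at 346 with the others at 438 to 456. The Cldn2 and Ocln values came from the same array, replicate 2, which for both genes lay nearest to the controls. At 30 mg/kg Gjb1 had 1 array at 2141 on day 8 (others 1893 to 1953) and Cdh1 had 1 at 1005 on day 15 (others 1178 to 1255). Among controls Cldn1 had 1 array at 117 on day 8 (others 169 to 193), Cldn2 had 1 at 317 on day 15 (others 360 to 373), Cldn3 had 1 at 427 on day 24 (others 498 to 512) and Cdh1 had 1 at 1150 on day 15 (others 883 to 931).

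The effect of dosing differed between days, by an interaction term with adjusted p under 0.05, in 6 of 40 comparisons, all at 80 mg/kg. Gjb1 differed by -0.58 between days 8 and 4 and by 1.01 between days 24 and 15. Cldn2 differed by 0.52 between days 15 and 8 and by 0.41 between days 24 and 15. Between days 24 and 15 Cldn3 differed by -0.77 and Ocln by -1.04.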

How the results depend on the processing

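No called change of a junction gene reversed its direction under any alternative. The counts of 4, 3 and 5 called junction genes at 80 mg/kg on days 4, 8 and 15 stayed within 1.5 times under all alternatives, and without 1 array each they ran from 3 to 5, 3 to 3 and 4 to 5. On day 24 the count of 0 stayed 0 without any 1 array (0 to 0), but was 2 with a common median (Gjb1 and Cldn3) and 2 with only the groups compared in the fit (Gjb2 and Cldn3). The count of 1 at 30 mg/kg on day 4 (Cdh1) was 0 with quantile normalization, a common median, no filter, no variance trend, only the groups compared or the actin covariate. It was 2 with a stricter filter, with all probe sets or with array weights, and 0 to 2 without 1 array each. At 30 mg/kg on day 15 the count was 1 (Ocln) with the stricter filter and with array weights, and without 1 array each it was 0 to 1 there and on day 24. For 80 against 30 mg/kg the count was 2 on day 24 with a common median, and on day 15 it was 3 with no filter and with no variance trend and 3 to 5 without 1 array each. The difference between the effects of days 8 and 4 at 80 mg/kg was called for 2 genes with array weights, 0 with only the groups compared, 0 with the actin covariate and 1 to 2 without 1 array each. That of days 15 and 8 was called for 0 genes with only the groups compared and 0 to 1 without 1 array each, and that of days 24 and 15 at 30 mg/kg for 0 to 1. For the other junction genes the count at 80 mg/kg was 11 to 19 on day 4 without 1 array each. On day 24 it was 5 with quantile normalization, 21 with a common median and 4 to 9 without 1 array each. Called pairs were 8 on day 4 and 5 on day 24 with the mean of each gene's probe sets, and with a difference of medians 0 on days 4, 8, 15 and 24, where the smallest adjusted p was 0.107. Without 1 array each they were 0 to 12 on day 4 and 0 to 7 on day 24. With the replicate block the 30 mg/kg count on day 4 was 0 (Cdh1 at 0.50, adjusted p = 0.0523), and no other count among the 8 genes changed; the arrays share only a number. Array medians were higher at 80 mg/kg, so that the median change of all genes on days 4, 8, 15 and 24 was 0.08, 0.15, 0.16 and 0.04, against -0.05, -0.07, 0.02 and -0.21 with a common median, which turned its sign on days 4, 8 and 24. Of all called genes 66.6%, 67.3%, 65.5% and 69.9% were higher, against 37.1%, 36.9%, 52.4% and 7.31% with a common median and 59.8%, 55.2%, 55.3% and 59.6% with quantile normalization. The actin covariate was chosen after seeing the data, as was leaving out the 2 arrays of highest actin ratio, and the causes of these differences were not tested.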
